A study of Mus musculus with 20 samples.

Results

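Fetal Leydig cells (FLC) are the androgen-making cells of the fetal testis. In the cell table of the mouse gonad atlas 1110 of 94705 cells were annotated as FLC, and these are the cells described here. All of them carried 1 Leiden cluster number (32), all came from XY testes, and 0 XX cells bore the annotation. The clusters and their names were made by the authors from the same expression values, so the level of a gene in FLC against another cell type is given below as a description, with no test.

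Embryos came from CD-1 outbred females mated with heterozygous Tg(Nr5a1-GFP) males. The transgene, a fluorescent reporter of the steroidogenic factor Nr5a1, is labelled in every library and served to find the genital ridges at dissection, with no cell sort stated. FLC were found in whole testes from E12.5 on (stages E12.5, E13.5, E16.5), with 2 XY libraries per stage that the authors treated as independent biological replicates, and 10x Chromium 3′ sequencing gave counts of unique molecular identifiers (UMIs) per gene and cell. The cells set beside FLC were early interstitial progenitors (EIP, 9763 cells), late interstitial progenitors (LIP, 6121 cells) and Sertoli cells (6242 cells) of the same XY libraries. EIP stand for the progenitors at E12.5 and E13.5 and LIP at E16.5, since 2 and 22 EIP were left in the E16.5 libraries. The XX ovaries of the same stages serve only as background.

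FLC take up cholesterol or make it from acetate, bring it into the mitochondrion with the carrier StAR, and turn it into steroids through a chain of cytochrome P450 enzymes and dehydrogenases. Their androgens and the peptide hormone INSL3 drive the male differentiation of the genital tract and the descent of the testis. In the mouse they arise from interstitial progenitors under signals of Sertoli cells, among them Desert hedgehog (DHH) and PDGFA, and Notch signalling holds progenitors back.

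The 6 XY libraries of E12.5 to E16.5 held 3025 to 8774 cells and 50874839 to 160435537 UMIs each. FLC gave sums of 170393 UMIs from 7 cells at E12.5 (replicate 2), 6207844 and 4546178 UMIs at E13.5, and 3259603 and 6121439 UMIs at E16.5, with medians of 13085.5, 20334, 16910 and 14917 UMIs per cell in the last 4. Of the 1110 FLC, 40 carried a barcode also seen in another of these libraries, and in 2 of these the other cell was an FLC too. A doublet score computed here placed 43 and 19 FLC at E13.5, and 6 and 22 at E16.5, among the highest 5% of cells of their library.

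Cells annotated as FLC were nearly absent at E12.5 and made up several percent of testis cells a day later. Shares here count annotated cells only, and E12.5 cells with several markers outside the annotation are described below. In E12.5 replicate 1 there were 0 FLC among 3025 cells, which allows a share of up to 0.0992% (3 counts). In E12.5 replicate 2 there were 7 among 7577 cells, or 0.0924% (95% Clopper-Pearson interval 0.0372 to 0.19%). At E13.5 they were 410 of 8774 cells, or 4.67% (4.24 to 5.14%), and 185 of 5765 cells, or 3.21% (2.77 to 3.7%). At E16.5 they were 159 of 4022 cells, or 3.95% (3.37 to 4.6%), and 349 of 6563 cells, or 5.32% (4.79 to 5.89%). The stage means were 3.94% ± 1.04 (SD, n = 2) and 4.64% ± 0.965 (SD, n = 2), and the ranges of E13.5 and E16.5 overlapped. As a share of interstitial cells (FLC, EIP and LIP) the means stood in the other order, at 9.25% ± 2.14 (SD, n = 2) and 7.4% ± 1.54 (SD, n = 2), again with overlapping ranges. Intervals and limits from counts cover counting error only, and 2 libraries per stage cannot reach an exact permutation p under the threshold.

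The 5 genes taken as markers of fetal Leydig cells were high in every FLC sum, so the data did not go against the label. Fewer expressing cells and less RNA per cell cannot be told apart in such sums. Levels here and below are CPM, the UMIs of a gene scaled to the summed UMIs of the cells of 1 type in 1 library with TMM factors. Star (chr8:25806555-25815982, plus strand, GRCm38), the cholesterol carrier, stood at 1070 in the 7 cells of E12.5, and at 1210 and 810 at E13.5 and 1770 and 1360 at E16.5. Cyp11a1 (chr9:58006411-58027023, plus strand), the enzyme that cuts the side chain of cholesterol to give pregnenolone, stood at 2610, and at 2500 and 2090 at E13.5 and 6850 and 5770 at E16.5. Cyp17a1 (chr19:46667165-46673172, minus strand), which leads from pregnenolone and progesterone to the androgens, stood at 4860, and at 2770 and 1790 at E13.5 and 9320 and 7660 at E16.5. In the sums of all 3 genes both E16.5 libraries lay above the earlier ones.

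Hsd3b1 (chr3:98852194-98859794, minus strand), the dehydrogenase that makes progesterone, stood at 1240 in FLC of E12.5 and at 911 and 1180 at E13.5 and 2140 and 1710 at E16.5. Insl3 (chr8:71689214-71690575, plus strand), the hormone of testis descent, stood at 538, and at 925 and 126 at E13.5 and 2010 and 8040 at E16.5. Insl3 had the widest spread of the 5 markers between libraries of 1 stage. E13.5 replicate 2 was also lowest and E16.5 replicate 2 highest for Insl3 in progenitors (22.2, 2.28, 7.31 and 35.7 in the order of the 4 libraries) and in Sertoli cells (4.76, 0.78, 4.94 and 44.5), at far lower levels.

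**Figure D1:**
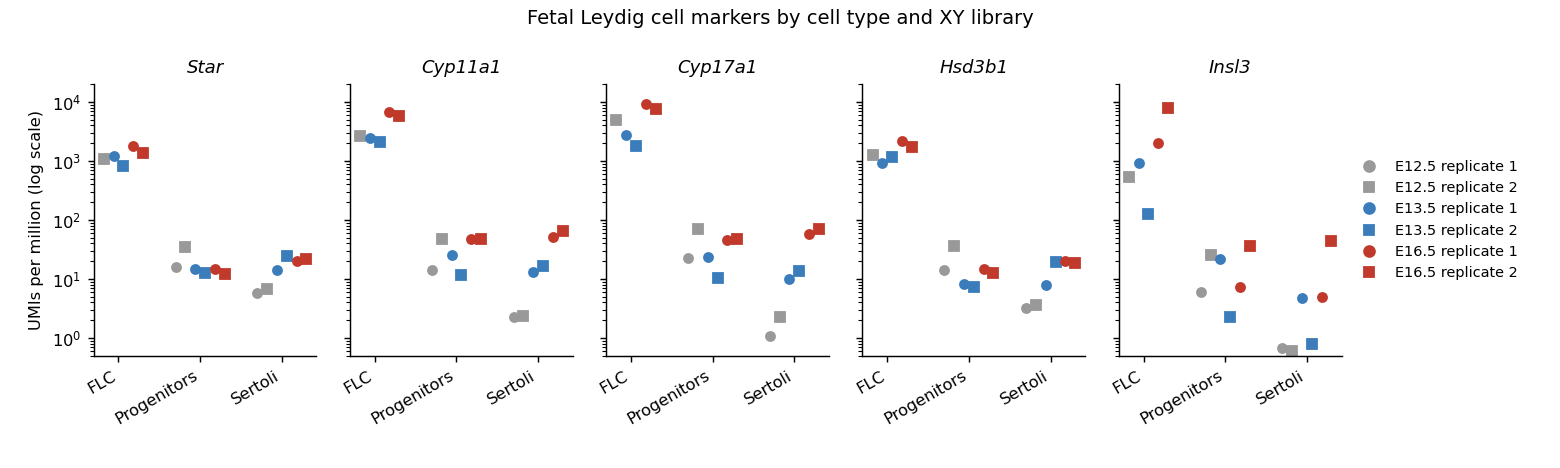
Level of the 5 markers in FLC, progenitors and Sertoli cells, in CPM on a log axis, with 1 point for the summed cells of a type in each XY library, coloured by stage, circles for replicate 1 and squares for replicate 2. In each library FLC lie above both other types, and Insl3 in FLC runs from 126 to 8040.

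Cell by cell the markers were found in nearly all FLC. At E13.5 and E16.5, 99.4 to 100% of FLC per library had a UMI of Cyp11a1, 97.3 to 100% of Cyp17a1, 96.1 to 98.9% of Hsd3b1, 90.8 to 100% of Star and 79.5 to 99.7% of Insl3. With each cell thinned to 3000 UMIs, 95.7 to 98.9% of FLC had a UMI of Cyp11a1. Germ cells, which make no steroids, had a UMI of Cyp11a1 after thinning in 11 of 499 and 7 of 500 cells at E13.5 and in 35 of 207 and 70 of 424 at E16.5 (12.3 to 75.8% of cells unthinned), so shares of this size are read as background. LIP of E16.5 gave 64 and 81 of 500 cells, and Sertoli cells of E16.5 gave 75 and 54 of 500. Median UMIs per cell were 21493.5 to 39094 in germ cells and 8702.5 to 18824 in LIP of E16.5 and Sertoli cells. Star after thinning was found in 85.8% and 80.5% of FLC in the E13.5 libraries and in 78% and 70.2% at E16.5, the other order from its sums. As a share of the UMIs of a cell, in UMIs per 10000, the median FLC had Star at 9.39 and 7 at E13.5 and 8.75 and 5.79 at E16.5, which overlap, and the 90th percentile was 25.3 and 16.3, then 30.8 and 26.8. Insl3 after thinning was found in 89.2% and 30.8% of FLC in the E13.5 libraries and in 96.2% and 99.4% at E16.5.

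Upstream sequence is shown for 4 genes on which the results turn: Cyp11a1 and Hsd3b1 as steroid enzymes, Insl3 as the peptide hormone, and Hmgcs1 as a gene of cholesterol synthesis. Each run is the 250 bases before a RefSeq transcript start on GRCm38.p6, read 5′ to 3′ on the strand of the gene. Capitals mark AGGTCA on either strand (TGACCT on the other), the core bound by NR5A1 and other nuclear receptors, and TCACNCCAC on either strand, the letters of a sterol element. The Cyp11a1 run is chr9:58014702-58014951 (plus strand), at 1 of the 2 starts listed for the gene, with AGGTCA 28 bases before the start. The run at the other start, chr9:57997774-57998023, holds neither. The first run lies inside the span given for Cyp11a1 above and the other ends before it, so neither adjoins the start of that span. The Hmgcs1 run is chr13:119690101-119690350 (plus strand), with matches 246 (TGACCT) and 137 (sterol element) bases before the start. The runs of Insl3, chr8:71689002-71689251 (plus strand), and Hsd3b1, chr3:98859795-98860044 (minus strand), hold neither.
Cyp11a1: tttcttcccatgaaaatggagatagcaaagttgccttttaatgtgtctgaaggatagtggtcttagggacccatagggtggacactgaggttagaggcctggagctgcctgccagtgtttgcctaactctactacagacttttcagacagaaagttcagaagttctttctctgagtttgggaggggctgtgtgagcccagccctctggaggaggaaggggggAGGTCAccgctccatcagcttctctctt
Hmgcs1: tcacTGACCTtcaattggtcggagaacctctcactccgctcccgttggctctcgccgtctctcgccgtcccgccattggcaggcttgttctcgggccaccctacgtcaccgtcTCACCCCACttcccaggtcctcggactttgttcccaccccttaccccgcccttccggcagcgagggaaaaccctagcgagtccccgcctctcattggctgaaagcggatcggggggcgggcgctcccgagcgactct
Insl3: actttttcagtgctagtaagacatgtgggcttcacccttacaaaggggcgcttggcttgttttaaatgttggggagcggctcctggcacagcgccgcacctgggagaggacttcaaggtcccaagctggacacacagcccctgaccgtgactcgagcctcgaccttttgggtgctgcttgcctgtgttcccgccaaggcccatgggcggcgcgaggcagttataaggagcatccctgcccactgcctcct
Hsd3b1: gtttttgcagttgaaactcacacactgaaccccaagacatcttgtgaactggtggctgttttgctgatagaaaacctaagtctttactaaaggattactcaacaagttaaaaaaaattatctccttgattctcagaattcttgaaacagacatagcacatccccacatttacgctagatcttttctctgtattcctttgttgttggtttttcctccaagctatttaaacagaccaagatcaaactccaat
Of 32851 such windows of all genes 14.0% held AGGTCA and 346 held TCACNCCAC. Windows were found for 18 genes of the steroidogenesis list (21 windows, of which 14.3% held AGGTCA) and for 21 genes of the cholesterol synthesis list (29 windows, of which 17.2% held it). Star and Cyp17a1 had no window and were not searched. AGGTCA lay before Cyp11a1, Cyp19a1 and Sult1e1 in the first list and before Dhcr7, Hmgcs1 and Insig1 in the second. The longer AAGGTCA, held by 4.08% of all windows, lay before Sult1e1, Dhcr7 and Hmgcs1 and not before Cyp11a1. A match says only that these letters lie in the window.

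FLC differed from both neighbours by at least 2-fold in all 4 libraries of E13.5 and E16.5 in 327 genes that were higher (2.49% of 13123 genes) and 118 that were lower (0.899%). Of the tested genes of the steroidogenesis list 13 of 24 were among the higher, of cholesterol synthesis 17 of 26, of cholesterol uptake and storage 6 of 16, of peptide hormones and receptors 10 of 26, and of transcription factors of the lineage 2 of 32. These counts describe cells that were named from such genes.

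Ranked by the smallest ratio to both other types over the 3 stages, the leading genes of FLC were Cyp17a1, Cyp11a1, Hao2, C4b, Hsd3b1, Star, Lhcgr, Adh1, Agt and Mrap. E12.5 enters this ranking with 7 cells of 1 library, and on the 4 later libraries 7 of the 10 were shared, with Clps, Insl3 and Fam129a in place of Adh1, Agt and Mrap. In the 4 later libraries Cyp17a1 was 114- to 197-fold above progenitors and 106- to 253-fold above Sertoli cells (ratio of levels plus 1). Fdx1, the ferredoxin that feeds electrons to CYP11A1, was 22.9- to 37.4-fold above progenitors and 27.4- to 44.2-fold above Sertoli cells. Lhcgr (chr17:88716481-88791990, minus strand), the receptor for luteinizing hormone, was 29.8- to 64.7-fold above progenitors and 46.1- to 95.9-fold above Sertoli cells. Agt, the angiotensin precursor, stood at 110 and 52.5 at E13.5 and 252 and 553 at E16.5, and Hao2, a hydroxyacid oxidase, at 422 and 224 at E13.5 and 566 and 344 at E16.5. The last gene had overlapping stages.

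Some enzymes of steroid synthesis were not high in FLC. Hsd17b3, which makes testosterone from androstenedione, stood at 7.73 and 3.27 at E13.5 and 11.1 and 10.1 at E16.5 in FLC. In Sertoli cells of the same libraries it stood at 183, 146, 304 and 321, and in progenitors at 2.67, 1.94, 10.9 and 9.89. Before thinning 5.85%, 4.32%, 20.1% and 14.3% of FLC had a UMI of Hsd17b3, beside 4.82%, 5.44%, 33.3% and 31.4% of germ cells. After thinning these were 1.72%, 0.541%, 2.52% and 2.87% of FLC, and 5 of 499, 5 of 500, 13 of 207 and 29 of 424 germ cells. FLC lay below germ cells in each library but E13.5 replicate 1, while 33.8 to 63.2% of Sertoli cells had a UMI after thinning. The part of RNA from other cells and of doublets in the shares of FLC and germ cells was not tested. Hsd17b1, a related enzyme, stood at 1.65 and 0.436 at E13.5 and 4.65 and 3.63 at E16.5 in FLC and at 24.7, 12, 130 and 142 in Sertoli cells. Hsd3b6, the dehydrogenase of adult Leydig cells, stood at 0.329 and 1.74, then 0.619 and 0. Cyp19a1, the aromatase, was at 0 in the FLC sums other than E16.5 replicate 2, where it stood at 0.165.

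Between E13.5 and E16.5 FLC changed in 122 of 13123 genes, with 78 higher at E16.5 (0.594%) and 44 lower (0.335%), by edgeR's quasi-likelihood test on library sums (2 against 2, adjusted p below 0.05 and an absolute log2 change of at least 0.361). The median difference of all genes was -0.03 on the log2 scale. Contrasts with E12.5 could not be tested, because only 1 library had FLC, so its values stand alone. The fit left 2 residual degrees of freedom and the count moved with the setting: DESeq2 called 683 genes, 121 of them among the 122, RLE size factors left 38 and TMM factors over all 3 cell types 39 (21 higher and 18 lower). Without E13.5 replicate 1 or 2 it was 281 or 19, and without E16.5 replicate 1 or 2 it was 490 or 865.

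The steroid list held 2 genes that rose (0.594% of all genes) and 0 that fell (0.335%) among 24 tested. Their median log2 difference was 0.53. In 15 of them both E16.5 libraries lay above both E13.5 libraries, and in 3 below, where 59.1% of all genes had stages that did not overlap. Cyp11a1 rose 2.81-fold (log2 1.49 ± 0.22, adjusted p = 0.0474) and Cyp17a1 rose 3.81-fold (log2 1.93 ± 0.28, adjusted p = 0.0474). Without E13.5 replicate 2 their adjusted p-values were 0.141 and 0.113, with RLE size factors both were 0.0529, and with TMM factors over all 3 cell types both were 0.0558. Hsd3b1 (0.92 ± 0.24, adjusted p = 0.0877), Fdx1 (0.81 ± 0.25, adjusted p = 0.118) and Star (0.67 ± 0.27, adjusted p = 0.181) did not pass. Hsd3b1 passed with DESeq2 (adjusted p = 0.0285) and with no filter on low counts (0.00324). Insl3 did not pass either (3.3 ± 0.99, adjusted p = 0.113). Its change was 5.32 without E13.5 replicate 1 and 3.98 without E16.5 replicate 1. Each of these fits leaves 1 library at a stage, so only the size of the Insl3 change is given for them. With no filter on low counts its change was the same, but its SE fell to 0.25 and 2213 genes were called. An SE that small does not reflect the spread of Insl3 between libraries. Passes with no filter, here and below, are therefore not read as support.

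Cyb5a, whose cytochrome b5 aids the lyase step of CYP17A1, stood at 746 in FLC of E12.5 and at 421 and 478 at E13.5 and 319 and 274 at E16.5, without passing the test (-0.57 ± 0.21, adjusted p = 0.158). The 3 stages did not overlap. Por, the reductase that serves CYP17A1 in the endoplasmic reticulum, stood at 139 and 201, then 218 and 191 (0.3 ± 0.25, adjusted p = 0.475), and Akr1cl, an aldo-keto reductase, at 1720 and 1020, then 1870 and 2390 (0.67 ± 0.3, adjusted p = 0.221).

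Of 26 genes of cholesterol synthesis 0 passed the test between stages. Their median log2 difference was 1.18, against -0.03 for all genes, and in 21 both E16.5 libraries lay above both E13.5 libraries, where 59.1% of all genes had stages that did not overlap in either direction. The summed level of the list was 3960 in the 7 cells of E12.5 and 2920 to 5280 at E13.5 and 8970 to 10400 at E16.5. In progenitors it was 838 to 1150 at E13.5 and 1620 to 1630 at E16.5, and in Sertoli cells 801 to 872 at E13.5 and 1040 to 1130 at E16.5. DESeq2 called 15 of the 26 higher, beside 3.43% of all genes, and a fit on equal numbers of cells 12, beside 2.29%. Leaving out 1 library gave 11 without E13.5 replicate 1 (1.25% of all genes), 0 without E13.5 replicate 2 (0.0704%), 6 without E16.5 replicate 1 (2.43%) and 14 without E16.5 replicate 2 (3.61%).

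Along the pathway, Hmgcs1, which condenses acetyl units at its entry, stood at 480 and 302 at E13.5 and 1040 and 796 at E16.5 (1.27 ± 0.29, adjusted p = 0.0739). Fdps, which makes farnesyl diphosphate, stood at 1350 and 529 at E13.5 and 2800 and 2910 at E16.5 (1.64 ± 0.42, adjusted p = 0.0859). Dhcr7, which makes cholesterol in a last step, stood at 246 and 131 at E13.5 and 735 and 537 at E16.5 (1.78 ± 0.34, adjusted p = 0.0616). In these 3 genes the stages did not overlap, and E13.5 replicate 2 was the lowest library. Srebf2, the transcription factor that drives the pathway, had overlapping stages, with 87 and 75, then 75.9 and 77.3, and so did its escort Scap, with 148 and 112, then 132 and 128.

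Of 16 tested genes of uptake and storage 0 were called, with a median of 0.14. Scarb1, the receptor for high-density lipoprotein, stood at 940 and 625 at E13.5 and 1970 and 1660 at E16.5 (1.25 ± 0.26, adjusted p = 0.067). Soat1, which esterifies cholesterol for storage, stood at 140 and 190 at E13.5 and 86.7 and 81.6 at E16.5 (-0.94 ± 0.23, adjusted p = 0.0837), and Abca1, a cholesterol exporter, at 133 and 172 at E13.5 and 78 and 82.9 at E16.5 (-0.88 ± 0.22, adjusted p = 0.0856).

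**Figure D2:**
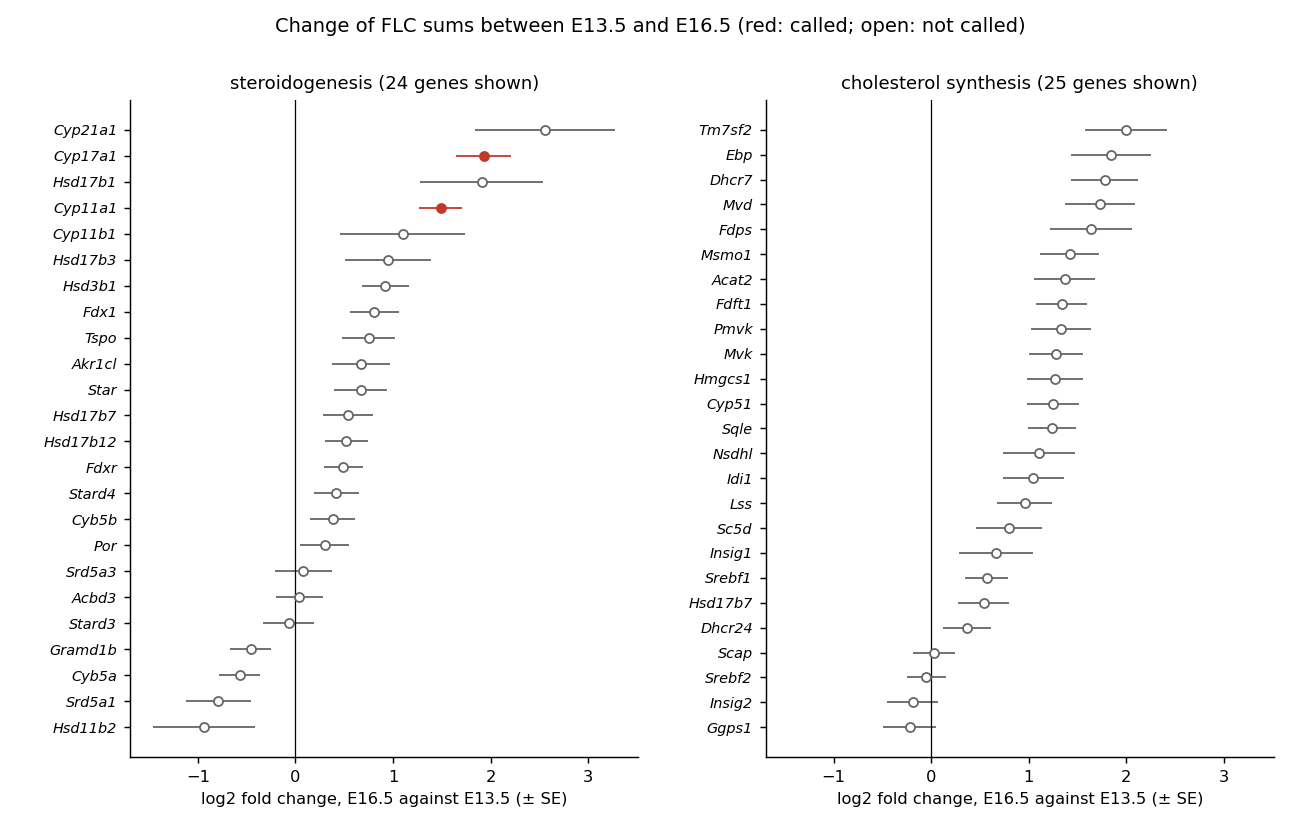
Log2 fold change of FLC sums between E13.5 and E16.5 (2 libraries each) for tested genes of the steroidogenesis and cholesterol synthesis lists, with bars of 1 SE, red filled points for called genes and open points for the rest. Cyp17a1 and Cyp11a1 are the called genes, and the whole cholesterol synthesis list has a median of 1.18 with 0 called.

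Of hormones and receptors 1 of 26 tested genes was called, as lower, beside 0.335% of all genes. Igf2, a fetal growth factor, stood at 124 and 153 at E13.5 and 39.3 and 36.3 at E16.5 and fell (-1.84 ± 0.22, adjusted p = 0.0328), though without E13.5 replicate 2 its adjusted p was 0.0962. Inha, the inhibin α chain, stood at 1530 and 851 at E13.5 and 2770 and 2570 at E16.5 (1.2 ± 0.31, adjusted p = 0.0861). Lhcgr stood at 99.1 and 75.9 at E13.5 and 213 and 173 at E16.5 (1.17 ± 0.24, adjusted p = 0.0652), and Prlr, the prolactin receptor, at 242 and 235 at E13.5 and 353 and 361 at E16.5 (0.62 ± 0.2, adjusted p = 0.124). In these last 3 genes the stages did not overlap. Lhcgr passed with DESeq2 (adjusted p = 0.00417), with no filter on low counts (0.000362), on equal numbers of cells (0.0442) and without E16.5 replicate 2 (0.0233). Mc2r, the ACTH receptor, had means of 21 at E13.5 and 17.1 at E16.5 in FLC, and Crhr1, the receptor for corticotropin-releasing hormone, stood at 75.7 and 55.4, then 67.8 and 79.9, both with overlapping stages.

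Of 32 tested transcription factors of the lineage 1 was called, as higher, beside 0.594% of all genes. Nr5a1, the master regulator of steroid enzymes, stood at 353 and 327 at E13.5 and 378 and 389 at E16.5 (0.21 ± 0.2, adjusted p = 0.547), 6.91- to 10.1-fold above progenitors and 2.47- to 3.86-fold above Sertoli cells. Nr0b1, which encodes the NR5A1 repressor DAX1, stood at 10 and 6.54 at E13.5 and 29.7 and 20.4 at E16.5 (1.6 ± 0.33, adjusted p = 0.0652). Fos, an immediate early gene, was the factor that rose, from 239 and 144 to 656 and 706 (1.86 ± 0.29, adjusted p = 0.0492). Cebpb stood at 38.7 and 44, then 491 and 18.5, with E16.5 replicate 1 far above the rest, and that library stood apart likewise in progenitors (13.4, 22.3, 125 and 6.6) and Sertoli cells (6.51, 12.4, 42.2 and 4.2).

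Fos and Ier2 were the 2 of 15 stress and dissociation genes that rose, beside 0.594% of all genes (Ier2 2.14 ± 0.34, adjusted p = 0.0492). With TMM factors over all 3 cell types both had an adjusted p of 0.0558, with RLE size factors 0.0529, and without E13.5 replicate 2 they had 0.131 and 0.0985. The summed level of the list was 2250 to 2670 at E13.5 and 4560 to 5290 at E16.5 in FLC and 4270 to 6260 at E13.5 and 8350 to 11100 at E16.5 in progenitors. Fos stood at 752, 435, 2100 and 1580 in progenitors and 235, 141, 682 and 370 in Sertoli cells. The part of tissue dissociation in these values was not tested.

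Genes for the ligands DHH and PDGFA were higher in Sertoli cells than in FLC in each of the 4 libraries. Gli1, Ptch1 and Pdgfra were lower in FLC than in progenitors in each of them. Of 16 tested hedgehog genes 1 was at least 2-fold higher in FLC than in both other types in all 4 libraries and 0 were lower. Of 5 PDGF genes 0 were higher and 1 was lower, beside 2.49% and 0.899% of all genes. Dhh, the ligand, stood at 8.72 and 7.63 at E13.5 and 3.72 and 4.45 at E16.5 in FLC and 179, 229, 143 and 175 in Sertoli cells. Gli1, an effector and target of hedgehog, had means of 9.97 and 9.36 in FLC of E13.5 and E16.5 and stood at 49.9, 60.2, 43.4 and 48.3 in progenitors. Ptch1, its receptor, stood at 81.3 and 114 at E13.5 and 58.8 and 58.8 at E16.5 in FLC and 201, 287, 200 and 148 in progenitors. Hhip, which binds and restrains the ligand, stood at 84.9 and 192 at E13.5 and 29.4 and 50.8 at E16.5 in FLC (-1.73 ± 0.44, adjusted p = 0.0856). Pdgfa stood at 16.3 and 22 at E13.5 and 9.29 and 13.4 at E16.5 in FLC and 242, 265, 406 and 432 in Sertoli cells. Pdgfra, its receptor, stood at 23.5 and 31 at E13.5 and 31.6 and 26 at E16.5 in FLC and 165, 177, 228 and 207 in progenitors. Of 16 tested hedgehog genes and 5 PDGF genes 0 were called between stages.

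Of 15 tested Notch genes 1 rose and 1 fell, beside 0.594% and 0.335% of all genes. Hes1, a target of Notch, stood at 457 and 579 at E13.5 and 145 and 127 at E16.5 in FLC and fell (-1.9 ± 0.23, adjusted p = 0.0328), with an adjusted p of 0.0878 without E13.5 replicate 2. Dlk1, a relative of the Notch ligands found in progenitors, stood at 47.6 and 39 at E13.5 and 278 and 349 at E16.5 and rose (2.89 ± 0.25, adjusted p = 0.0148). The 2 stages lay on the same side in the other types, with Hes1 at 1430, 1050, 1040 and 405 in progenitors and 1130, 852, 289 and 165 in Sertoli cells, and Dlk1 at 365, 264, 1900 and 1740 and 83.4, 76.6, 369 and 219. Jag1, a Notch ligand, was higher in FLC than in progenitors in all 4 libraries, with 92.1 and 81.5, then 46.5 and 40.7 (-0.96 ± 0.21, adjusted p = 0.0701) against 37.4, 31.1, 12.1 and 14.4.

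Among called genes of at least 50 CPM at 1 stage whose libraries did not overlap, the 5 largest rises in FLC were those of Pdlim3, Gsta1, Hbb-bs, Ifi27 and Hbb-bt, and the 5 largest falls those of Hba-x, Dppa3, Hmga2, Mal and Slc6a4. Mal, a membrane protein of lipid rafts, stood at 361 in the 7 cells of E12.5, and at 161 and 226 at E13.5 and 20.1 and 23.1 at E16.5 (-3.12 ± 0.27, adjusted p = 0.0148). Progenitors had Mal at 1.18, 2.34, 0.248 and 0.421 and Sertoli cells at 0.42, 2.95, 0.232 and 0.504, so FLC stood apart in each library. Slc6a4, the serotonin transporter, stood at 109 in the cells of E12.5 and had means of 67.8 at E13.5 and 10.2 at E16.5 in FLC (-2.71 ± 0.32, adjusted p = 0.0324), against 1.02, 1.35, 0.207 and 0.562 in progenitors. Without E13.5 replicate 2 its adjusted p was 0.0612. Gsta1, a glutathione transferase, stood at 12 and 6.32 at E13.5 and 122 and 91.2 at E16.5 in FLC (3.54 ± 0.35, adjusted p = 0.0182), and at 3.08, 1.99, 31.1 and 19.9 in progenitors.

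Other large changes were seen in the neighbouring types too. Pdlim3, a protein of the muscle cytoskeleton, stood at 2.8 and 1.31 at E13.5 and 70.3 and 51.4 at E16.5 in FLC (4.85 ± 0.38, adjusted p = 0.0148), at 689 and 467 in progenitors of E16.5 and at 2.8, 0.835, 121 and 55.4 in Sertoli cells. Hmga2, a chromatin protein of fetal growth, stood at 45.7 and 85.2 at E13.5 and 1.86 and 2.8 at E16.5 in FLC (-4.7 ± 0.43, adjusted p = 0.0169), at 377, 569, 40.6 and 28.8 in progenitors and at 360, 479, 16.4 and 11.2 in Sertoli cells. Ifi27, an interferon-induced gene, stood at 59.9 and 30.3 at E13.5 and 283 and 397 at E16.5 in FLC (2.95 ± 0.38, adjusted p = 0.0419), at 33.5, 24.5, 96.5 and 96.5 in progenitors and at 59.9, 42.4, 251 and 377 in Sertoli cells. Without E13.5 replicate 2 its adjusted p in FLC was 0.0612. In all 3 genes the stages did not overlap in any of the types and lay in the same order.

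Transcripts of other cell types moved with stage in FLC as well, where 0.594% of all genes were called higher and 0.335% lower. Of 7 tested erythrocyte markers 3 rose (Hbb-bs, Hbb-bt and Alas2), and the summed level of the list was 3670 to 7220 at E13.5 and 8870 to 12800 at E16.5 in FLC and 2260 to 2610 at E13.5 and 4330 to 6430 at E16.5 in progenitors. Alas2, of heme synthesis, was not called with RLE size factors (adjusted p = 0.0529), with TMM factors over all 3 cell types (0.0558), or without E13.5 replicate 1 (0.0574) or 2 (0.166). Hbb-bs, an adult globin, stood at 608 and 482 at E13.5 and 4070 and 6280 at E16.5 in FLC, 725, 793, 2060 and 3080 in progenitors and 1720, 161, 1620 and 2490 in Sertoli cells. Hba-x, an embryonic globin, stood at 367 and 329 at E13.5 and 0 and 4.29 at E16.5 in FLC, 43.2, 52.8, 0 and 2.56 in progenitors and 97.4, 29.2, 0.154 and 2.18 in Sertoli cells. The germ cell gene Dppa3, the 1 called of 11 germ cell markers, stood at 63.5 and 97 at E13.5 and 0.31 and 1.15 at E16.5 in FLC and 43.5, 23.1, 0.33 and 1.32 in progenitors, and the list summed to 192 to 344 at E13.5 and 88.9 to 92.6 at E16.5 in FLC. The smooth muscle gene Acta2, the 1 called of 10, stood at 30.1 and 30.7 at E13.5 and 142 and 151 at E16.5 in FLC and 424, 296, 1500 and 1290 in progenitors, and without E13.5 replicate 2 its adjusted p was 0.0587. Immune markers, with 0 of 8 called, summed to 46.4 to 93.5 at E13.5 and 12.4 to 75.5 at E16.5 in FLC, and 2.55 to 11 at E13.5 and 15.1 to 31.7 at E16.5 in progenitors. The part of RNA from other cells in these values was not tested.

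The summed markers of each neighbouring type were lower in FLC than in the type they mark. Between stages 0 of 23 progenitor markers and 0 of 20 Sertoli markers were called in FLC. Progenitor markers summed to 974 to 1140 at E13.5 and 1350 to 1550 at E16.5 in FLC, against 4620 to 4830 at E13.5 and 8810 to 8850 at E16.5 in progenitors. Sertoli markers summed to 1170 to 1760 at E13.5 and 1490 to 1930 at E16.5 in FLC, against 10800 to 11600 in Sertoli cells over both stages and 286 to 312 at E13.5 and 463 to 535 at E16.5 in progenitors, below FLC. Against the stage change in progenitors 6 of 21 Sertoli markers (median -0.97), 4 of 24 progenitor markers (median -0.29) and 2 of 8 immune markers (median -1.81) shifted away from FLC, beside 2.09% of all genes, and 0, 1 and 0 toward FLC. Against the change in Sertoli cells 2 of 22 (median 0.05), 2 of 23 (median -0.73) and 1 of 9 (median -2.88) shifted away, beside 1.58% of all genes, and 1, 0 and 0 toward FLC. The part of RNA from these cells in the differences between types was not tested. Amh, which defines Sertoli cells, stood at 13 and 6.76, then 5.57 and 18.3 in FLC and 458, 343, 405 and 851 in Sertoli cells. Cst8, a cystatin counted among the Sertoli markers, stood in FLC at 286 and 198, then 380 and 254 and in Sertoli cells at 221, 243, 83.2 and 78.8.

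Whether a change with age was particular to FLC was tested as the difference between the change in FLC and that in another type of the same libraries, with the library as a block. Against progenitors 631 of 17444 genes differed, 267 with the larger rise or smaller fall in FLC (1.53%) and 364 the other way (2.09%). Against Sertoli cells 434 of 16121 genes differed, 180 toward FLC (1.12%) and 254 away (1.58%). Without the library block 0 and 8 genes were called (1147 and 1460 at an unadjusted p under 0.05), so the calls rest on the pairing of sums from 1 library. Without E13.5 replicate 1 the counts were 1066 and 910, and without E16.5 replicate 1 they were 492 and 176. The progenitor comparison sets EIP against LIP, was added after the cell numbers were seen, and shares the FLC sums with the Sertoli comparison.

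For the steroid enzymes that rose in FLC such a difference did not pass as fitted, and the values moved with the setting. Cyp11a1 differed by 0.03 ± 0.22, adjusted p = 0.972 against progenitors and by -0.5 ± 0.24, adjusted p = 0.32 against Sertoli cells. Cyp17a1 differed by 0.35 ± 0.18, adjusted p = 0.368 and by -0.52 ± 0.31, adjusted p = 0.437. With no filter on low counts both passed against Sertoli cells (adjusted p = 0.0364 for Cyp11a1 and 0.0238 for Cyp17a1). Without E13.5 replicate 2 Cyp17a1 passed against both types, with opposite signs (0.6, adjusted p = 0.0405 against progenitors and -1.07, adjusted p = 0.00915 against Sertoli cells), and without E16.5 replicate 2 against progenitors (0.56, adjusted p = 0.0491). Progenitors held Cyp17a1 at 23.3, 10.3, 46.4 and 47.3 and Sertoli cells at 9.94, 13.8, 57.1 and 71.1, far below FLC, and after thinning 8 of 499, 5 of 500, 29 of 207 and 68 of 424 germ cells had a UMI of it. Cells outside the FLC with several of these markers, described below, were part of those sums. Without those cells Cyp11a1 and Cyp17a1 passed with the smaller rise in FLC. The differences were -1 and -1.32 against progenitors and -1.25 and -1.33 against Sertoli cells. Both genes were used to choose those cells, so these values support nothing. The part of free RNA in these values was not tested.

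Star passed against progenitors (0.72 ± 0.17, adjusted p = 0.026), as did Lhcgr (0.95 ± 0.22, adjusted p = 0.026). Without the 5% of cells with the highest doublet scores neither did, with 0.48 (adjusted p = 0.244) and 0.8 (adjusted p = 0.119). On equal numbers of cells Lhcgr took the other sign (-1.19, adjusted p = 0.634). Without marker-carrying cells, described below, Star was at 0.06 (adjusted p = 0.937) and Lhcgr at 0.5 (adjusted p = 0.365). Star was also lost without E13.5 replicate 2 (adjusted p = 0.0941), and Lhcgr without E13.5 replicate 1 (0.0771) or E16.5 replicate 1 (0.097). Insl3 passed against progenitors (2.42 ± 0.18, adjusted p = 5.18e-06) and not against Sertoli cells (0.45 ± 0.36, adjusted p = 0.573). With no library block the difference from progenitors was 2.44 ± 1.74 (adjusted p = 0.956). The small SE thus rests on the pairing of sums and does not reflect the spread of Insl3 between libraries. The part of free RNA in the progenitor values of Insl3 was not tested. Without marker-carrying cells Insl3 was at 1.65 against progenitors (adjusted p = 8.76e-05). Star and Insl3 are among the markers that chose those cells, so their values without them follow from that choice. Lhcgr is not among them. At E13.5 it stood at 25.6 and 20 in marker-carrying EIP and 1.53 and 0.91 in other EIP (plain CPM). Its value without those cells thus depends on the choice too. Cyb5a passed against both types, with -0.83 ± 0.15, adjusted p = 0.00493 against progenitors and -0.81 ± 0.16, adjusted p = 0.0356 against Sertoli cells, where the call was lost on equal numbers of cells (adjusted p = 0.0501) and without E13.5 replicate 2 (0.0765), E16.5 replicate 1 (0.058) or E16.5 replicate 2 (0.126). It stood at 149, 169, 206 and 172 in progenitors and 228, 257, 269 and 284 in Sertoli cells, so the E16.5 levels of FLC (319 and 274) lay near those of Sertoli cells.

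In cholesterol synthesis 2 of 26 genes shifted toward FLC against progenitors (1.53% of all genes) and 1 away (2.09%), and 3 shifted toward FLC against Sertoli cells (1.12%) and 0 away (1.58%). Against progenitors Mvd was among those toward FLC (0.85 ± 0.17, adjusted p = 0.01), and the 1 away from FLC was Scap (-0.81 ± 0.18, adjusted p = 0.0173). Against Sertoli cells they were Hmgcs1 (1.22 ± 0.24, adjusted p = 0.0314), Dhcr7 (1.4 ± 0.29, adjusted p = 0.0372) and Nsdhl (1.41 ± 0.31, adjusted p = 0.0477), of which 0 passed without E16.5 replicate 1. Nsdhl was also lost without E13.5 replicate 2 (0.86, adjusted p = 0.0597) and without E16.5 replicate 2 (adjusted p = 0.0867). Hmgcs1, whose upstream run is printed above, stood at 110, 81.6, 136 and 151 in progenitors and 103, 95.4, 94.1 and 107 in Sertoli cells. Scarb1 also shifted toward FLC against progenitors (0.73 ± 0.18, adjusted p = 0.0379). Acss2, which makes acetyl-CoA from acetate, led the shifts against Sertoli cells (3.15 ± 0.48, adjusted p = 0.0158), with 21.6 and 7.63 at E13.5 and 99.4 and 45.7 at E16.5 in FLC and 11.1, 14, 7.8 and 5.66 in Sertoli cells.

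**Figure D3:**
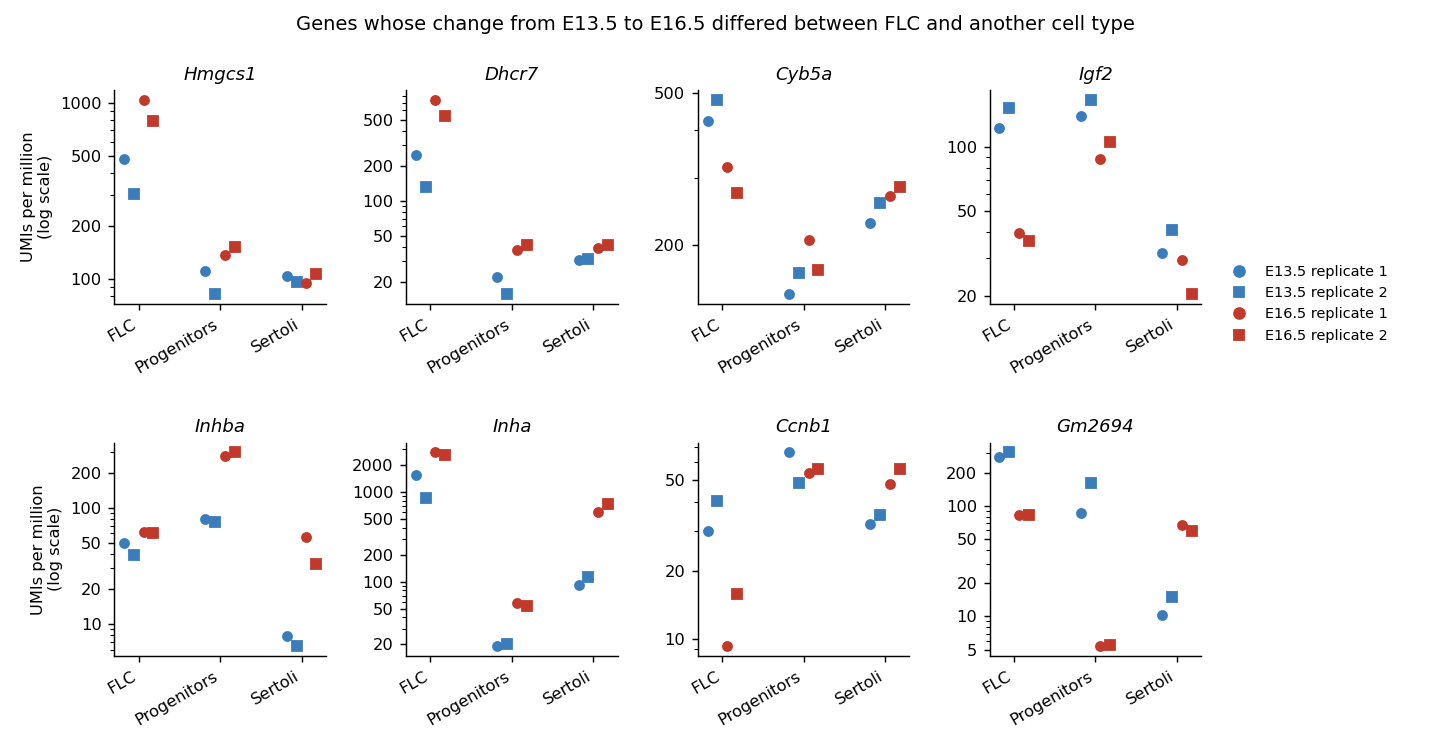
Levels of 8 genes in FLC, progenitors and Sertoli cells of the 4 libraries, in CPM on log axes, blue for E13.5 and red for E16.5, circles for replicate 1 and squares for replicate 2. Hmgcs1 and Dhcr7 lie higher at E16.5 in FLC, Igf2 and Cyb5a lie lower, and Gm2694 is lower at E16.5 in FLC and progenitors and higher in Sertoli cells.

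Between the types the stage changes of Inhba, Inha and Igf2 differed in size. Inhba, the activin chain, stood at 49.5 and 38.8 at E13.5 and 61.3 and 60.7 at E16.5 in FLC, 80.5, 74.5, 279 and 299 in progenitors and 7.91, 6.4, 55.5 and 32.7 in Sertoli cells. The difference between its changes was -1.42 ± 0.18, adjusted p = 0.000227 against progenitors and -2.1 ± 0.27, adjusted p = 0.00926 against Sertoli cells. Inha stood at 92.6, 112, 596 and 742 in Sertoli cells, and its change there was the larger (-1.49 ± 0.31, adjusted p = 0.0396, not called without E16.5 replicate 1 or 2). The change of Igf2 in FLC lay below that in progenitors (-1.21 ± 0.18, adjusted p = 0.0011) and in Sertoli cells (-1.31 ± 0.2, adjusted p = 0.0158). Mc2r (1.83 ± 0.39, adjusted p = 0.0132) and Crhr1 (2.17 ± 0.35, adjusted p = 0.0018) differed from progenitors although their stages overlapped in FLC. On equal numbers of cells neither passed (adjusted p = 0.292 and 0.247), and Mc2r did not without E13.5 replicate 2 (0.0806) or E16.5 replicate 1 (0.0532). In progenitors Mc2r stood at 1.75, 3.05, 0.537 and 0.506 and Crhr1 at 2.61, 1.14, 0.289 and 0.59.

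Gm2694 and Cbln1 overlap on chromosome 8 (chr8:87460469-87525554, plus strand, and chr8:87468405-87472609, minus strand) and were called in both comparisons with opposite signs. Cbln1 encodes a secreted cerebellin, and reads of overlapping genes may be split between them in ways not tested here. Gm2694 stood at 275 and 305 at E13.5 and 83 and 82.3 at E16.5 in FLC and fell (-1.77 ± 0.21, adjusted p = 0.0324). It stood at 86.1, 161, 5.37 and 5.48 in progenitors and 10.2, 15.1, 67.1 and 59 in Sertoli cells, and differed by 2.64 ± 0.23, adjusted p = 9.48e-06 and by -4.15 ± 0.2, adjusted p = 5.15e-05. Cbln1 stood at 271 and 260 at E13.5 and 169 and 116 at E16.5 in FLC, 135, 205, 21.7 and 12.4 in progenitors and 13.9, 17.4, 70.7 and 40.1 in Sertoli cells, so both genes were lower at E16.5 in the interstitial types and higher in Sertoli cells.

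Of the other genes with the largest shifts, Gsta3, a glutathione transferase, rose in FLC, with 16 and 9.59 at E13.5 and 81.8 and 49.1 at E16.5 (2.37 ± 0.35, adjusted p = 0.0474), and differed from progenitors by 4.41 ± 0.35, adjusted p = 5.18e-06. Mapt, which encodes the microtubule protein tau, stood at 52.7 and 40.8 at E13.5 and 104 and 74.7 at E16.5 in FLC and 8.84, 8.26, 3.02 and 3.57 in progenitors (2.29 ± 0.24, adjusted p = 5.55e-05). Mapk13, a p38 kinase, stood at 98.6 and 132 at E13.5 and 19.8 and 16.3 at E16.5 in FLC and shifted away in both comparisons (-2.9 ± 0.31, adjusted p = 5.72e-05 and -2.33 ± 0.3, adjusted p = 0.0093). Rbp4, the retinol carrier, stood at 75.5 and 64.5 at E13.5 and 33.8 and 34.3 at E16.5 in FLC, 6.68, 4.81, 15.4 and 13.1 in progenitors and 0.77, 0.78, 6.72 and 3.92 in Sertoli cells, and also shifted away in both (-2.33 ± 0.21, adjusted p = 1.19e-05 and -3.74 ± 0.36, adjusted p = 0.00253). Col18a1, a basement membrane collagen, stood at 36.4 and 32.9 at E13.5 and 95.7 and 73.8 at E16.5 in FLC and 293, 657, 101 and 152 in Sertoli cells (3.06 ± 0.41, adjusted p = 0.00992). Greb1 stood at 115 and 96.6 at E13.5 and 79 and 92 at E16.5 in FLC and 7.77, 6.29, 37 and 37 in Sertoli cells (-2.71 ± 0.19, adjusted p = 0.000358).

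Mitochondrially encoded genes shifted toward FLC in part. Of 13 genes 5 differed from progenitors and 3 from Sertoli cells, all toward FLC, beside 1.53% and 1.12% of all genes, while 0 passed between stages within FLC (median 0.67). The list summed to 18100 to 18600 at E13.5 and 26000 to 29100 at E16.5 in FLC, 10400 to 13800 at E13.5 and 11100 to 11600 at E16.5 in progenitors and 19000 to 22100 at E13.5 and 18000 to 20300 at E16.5 in Sertoli cells. mt-Nd1, a subunit of respiratory complex I, stood at 7220 and 6890 at E13.5 and 11000 and 9580 at E16.5 in FLC and 3880, 4970, 3840 and 4230 in progenitors (0.68 ± 0.15, adjusted p = 0.014). Without the 5% of cells with the highest doublet scores its adjusted p was 0.0655, and without E13.5 replicate 2 it was 0.165.

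Most FLC were placed in G1 by the phase calls of the cell table, which is also the call of a cell with low S and G2/M scores. In G1 were 89.8% and 79.5% of FLC at E13.5 and 95.6% and 89.7% at E16.5, and 6 of the 7 cells of E12.5. The share was 54.5% and 52.7% in EIP of E13.5, 65.7% and 66.3% in LIP of E16.5, and 63.1% and 67.6%, then 44.1% and 43.1%, in Sertoli cells. FLC lay above the other types at both stages, and the 2 stages of FLC overlapped. With each cell thinned to 3000 UMIs and scored anew, G1 took 91.2% and 80.5%, then 93.1% and 91.4%, of FLC. Mki67, a proliferation gene, had a UMI in 11.3 to 24.3% of FLC, and after thinning in 1.26 to 5.41%. Free RNA enters such calls too, and its part was not tested.

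The summed transcripts of the G2/M genes were lowest in FLC too. Of the 20 genes 0 were at least 2-fold lower in FLC than in both other types in all 4 libraries, beside 0.899% of all genes. The list summed to 702 to 1160 at E13.5 and 391 to 605 at E16.5 in FLC, 2600 to 2610 at E13.5 and 2090 to 2170 at E16.5 in progenitors and 1350 to 1390 at E13.5 and 1930 to 1990 at E16.5 in Sertoli cells. Of 20 genes 0 passed between stages in FLC (median -1.16), though in 17 both E16.5 libraries lay below both E13.5 libraries (59.1% of all genes did not overlap in either direction), and DESeq2 called 4 lower (1.78% of all genes) and the fit with no filter on low counts 11 (4.16%). Without E16.5 replicate 2 the fit called 8 of them lower (median -1.81, 2.77% of all genes) and without E13.5 replicate 1 it called 1 (median -1.49, 0.816%). Without E13.5 replicate 2 or E16.5 replicate 1 it called 0 (medians -0.63 and -0.7, 0.0634% and 0.992% of all genes). Against Sertoli cells 9 of the 20 shifted away from FLC, beside 1.58% of all genes, and against progenitors 2, beside 2.09%. Against progenitors leaving out 1 library gave 1 to 13, with 12 without E13.5 replicate 1 (2.89% of all genes) and 13 without E16.5 replicate 2 (2.26%). Against Sertoli cells it gave 4 to 19, with 4 without E16.5 replicate 1 (0.583%) and 19 without E13.5 replicate 1 (2.92%). Ccnb1, the mitotic cyclin, stood at 29.9 and 40.3 at E13.5 and 9.29 and 15.8 at E16.5 in FLC and 32.2, 35, 48.2 and 56.2 in Sertoli cells (-2.09 ± 0.24, adjusted p = 0.0067). In E13.5 replicate 2 Ccnb1 thus lay higher in FLC than in Sertoli cells. Of 20 S phase genes 0 were called in the stage test (median -0.23).

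Among 12 inhibitors of the cycle, of which 0 of 11 tested were called between stages, Cdkn1c, which encodes p57, had the highest ratios to the other types. It stood at 1170 and 994 at E13.5 and 883 and 734 at E16.5 in FLC, 91.3, 181, 143 and 104 in progenitors and 66.5, 114, 31.2 and 30.4 in Sertoli cells, 5.47- to 12.7-fold above progenitors. Its stages did not overlap in FLC and the difference did not pass (-0.38 ± 0.22, adjusted p = 0.312). Gadd45g, a growth arrest gene, stood at 135 and 67.4 at E13.5 and 177 and 248 at E16.5 in FLC, and its shift passed against progenitors (1.69 ± 0.22, adjusted p = 0.000331) and Sertoli cells (1.31 ± 0.22, adjusted p = 0.0207).

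**Figure D4:**
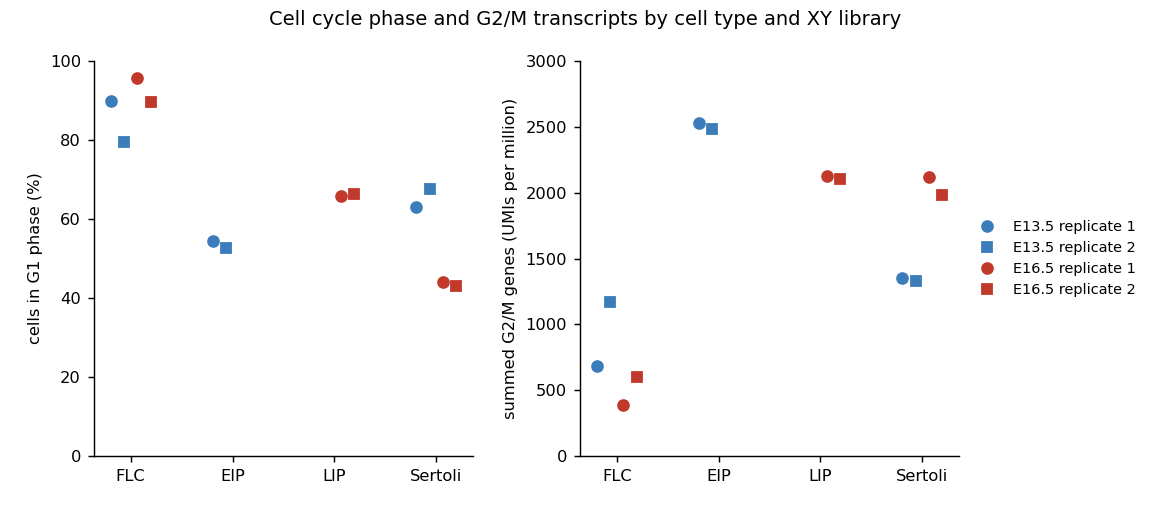
Share of cells called in G1, in percent (left), and summed plain CPM of 20 G2/M genes (right), by cell type and XY library, blue for E13.5 and red for E16.5, circles for replicate 1 and squares for replicate 2. FLC have the highest G1 shares (79.5 to 95.6%) and the lowest G2/M sums of the types shown.

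Steroidogenic transcripts were also found at E12.5 in cells not annotated as FLC. A cell was counted as marker-carrying when at least 3 of the 5 markers had at least 2 UMIs, a rule that took 98.5 to 100% of FLC in each library. Outside FLC it took 27 of 3025 cells in E12.5 replicate 1 and 109 of 7570 in replicate 2, of which 27 and 105 were EIP, all in Leiden cluster 3. At E13.5 it took 88 and 59 cells, of which 63 and 36 were EIP, 16 and 11 germ cells, and 6 and 11 Sertoli cells. At E16.5 it took 40 and 49, of which 17 and 22 were germ cells, 14 and 11 LIP, and 9 and 12 Sertoli cells. In the 6 XX libraries of these stages it took 0 cells. Marker-carrying cells at E12.5 thus outnumbered the 7 annotated FLC.

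In the 8 genes plotted here, which the rule did not use, marker-carrying EIP lay between other EIP and FLC in E12.5 replicate 2 and both E13.5 libraries. These 8 were chosen among the genes examined, and others did not. Nr5a1 lay above both in E12.5 replicate 2, with 216 in marker-carrying EIP, 47.6 in other EIP and 200 in FLC. Sox9, a Sertoli gene, lay above both in E13.5 replicate 2, with 153 in marker-carrying EIP, 73.5 in other EIP and 50.6 in FLC. In E12.5 replicate 2, in plain CPM, Fdx1 stood at 1210 in them, 78 in other EIP and 5860 in the 7 FLC. Lhcgr stood at 32.5, 1.48 and 170 in the same order, and Scarb1 at 485, 53.5 and 1040. The progenitor gene Nr2f2 stood at 105, 357 and 52.8, and Tcf21, another, at 25, 273 and 11.7. In E12.5 replicate 1, with 0 FLC, Fdx1 stood at 822 in marker-carrying and 70.5 in other EIP, and Nr2f2 at 51 and 301. Both libraries of the stage thus had more Fdx1 and less Nr2f2 in marker-carrying EIP.

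The marker-carrying EIP were also deeper, and more of them had a high doublet score. Their median UMIs were 23312 and 22217 at E12.5, against 14702 and 14760 in other EIP. Among the highest 5% of doublet scores were 7.41% and 4.76% of them at E12.5 and 15.9% and 16.7% at E13.5, against 6.79%, 2.67%, 2.02% and 1.98% of other EIP. The part of depth and doublets in the rule was not tested.

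**Figure D5:**
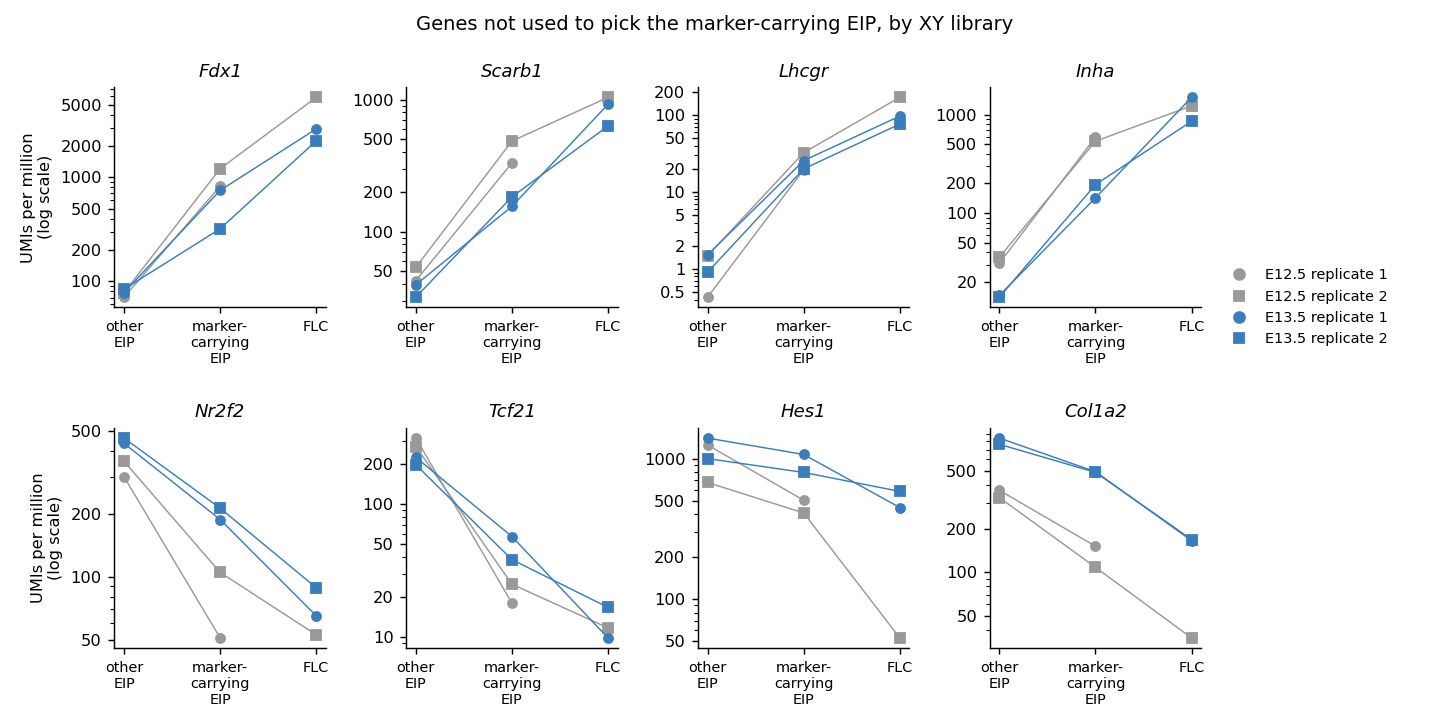
Levels of 8 genes that the rule did not use in other EIP, marker-carrying EIP and FLC, in plain CPM on log axes, with a line for each XY library of E12.5 and E13.5. Fdx1, Scarb1, Lhcgr and Inha run up toward FLC and Nr2f2, Tcf21, Hes1 and Col1a2 run down, and the FLC of E12.5 are 7 cells of replicate 2.

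The 7 annotated FLC of E12.5 held 7162 to 35889 UMIs each. Star gave 3 to 70 UMIs per cell, Cyp11a1 5 to 167 and Cyp17a1 2 to 422, and Cyp21a1, Sox9, Amh and Pdgfra gave 0 in all 7.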

How the data were processed

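Single cells of whole mouse gonads were sequenced by the authors with 10x Chromium 3′ v2 chemistry. Per the labels and the study's methods, reads were mapped to GRCm38 and UMIs counted with Cell Ranger 2.1. Scrublet was run, with no cell filtered on its score. The deposited matrix holds raw UMI counts of 26397 genes in 94705 cells. The authors' cell table gives annotation, cluster, cell cycle phase and phase score of each cell, and the deposited log-normalized matrix was not used. The UMI total of the matrix equalled that of the table in 41266 cells, and the matrix was used. Whether counting used strand is not given in the sources used here, so overlapping genes are uncertain.

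Counts were summed over the cells of a type in a library, and these sums, not cells, were the replicates. The sums in the main fits held at least 10 cells. The FLC sum of 7 cells at E12.5 entered the printed levels, the TMM factors over all 3 cell types and the ranking of leading genes. The E13.5 and E16.5 sums (2 libraries each) were compared with edgeR 4.0.16 (R 4.3.3): TMM factors within each fit, filterByExpr, the two-sided quasi-likelihood test and Benjamini-Hochberg adjustment, with 2 residual degrees of freedom. Genes were called at an adjusted p under 0.05 and an absolute log2 change of at least 0.361. The change in FLC was set against that in progenitors or Sertoli cells by an interaction with the library as a block. FLC sums deviated from their stage mean together with the sums of the same library (r = 0.402 and 0.503 for progenitors, 0.349 and 0.396 for Sertoli cells, over 18537 genes), and the pairing comes from the shared library. Printed levels use TMM factors over all 3 cell types at once. Plain CPM are UMIs scaled to the plain total. Level ratios add 1 CPM.

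On simulated counts the stage fit recovered 92% of 4-fold and 28% of 2-fold changes (12756 genes). The progenitor interaction recovered 99% and 74% (17092 genes), and the Sertoli interaction 99% and 63% (15687 genes). These counts were drawn around means pooled over libraries, with no library effect. Their spread followed the trend with expression level, not that of each gene, and changes were set only in genes above a minimum level. The shares thus do not give the recovery in the real libraries. DESeq2 1.42.0, RLE size factors, no filter, equal numbers of cells (159), doublet removal and leaving out each library were alternatives. Doublet scores were computed here from simulated doublets with scikit-learn 1.9.0, and thinned phases with scanpy 1.11.5. Intervals are Clopper-Pearson at 95%.

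The cells and gene lists were chosen with earlier results of these data known. Named genes were any list member, the 5 largest called changes in each direction among genes of at least 50 CPM (for stage changes, without overlap between stages), and the 10 genes with the highest smallest ratio to both other types. Promoters were read from RefSeq windows of GRCm38.p6. A few list members are not reported here by name, and the counts of the lists include them.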

Additional observations from a re-analysis of the deposited data

Results flagged for a closer look

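The test of the difference itself, an interaction with the library as a block, found the change between E13.5 and E16.5 in FLC to differ from that in progenitors in 631 genes and from that in Sertoli cells in 434 genes. Values below are differences between stage changes on the log2 scale, positive with the larger rise or smaller fall in FLC.

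Against progenitors, genes of hormones, receptors and cholesterol included Star at 0.72, Lhcgr at 0.95, Mc2r at 1.83, Crhr1 at 2.17, Insl3 at 2.42 and Mvd at 0.85 toward FLC, and Cyb5a at -0.83, Igf2 at -1.21, Inhba at -1.42 and Dhh at -2.04 away. Without the cells of highest doublet score Dhh (-0.56), Star (0.48), Lhcgr (0.8), mt-Nd1 (0.66) and Abcb1b (-2.21) were not called, the value of Dhh moving most. Gadd45g was at 1.69, Ccnb1 at -1.36 and mt-Nd1 at 0.68. Among the largest differences toward FLC were Gsta3 at 4.41, Gm2694 at 2.64, Cbln1 at 2.43 and Mapt at 2.29. Among the largest away from FLC were Mapk13 at -2.9, Ifitm1 at -2.83, Rbp4 at -2.33, Abcb1b at -2.25 and Hbb-y, an embryonic globin of erythrocytes, at -2.13. Abcb1b was also lost on equal numbers of cells (adjusted p = 0.157) and without E13.5 replicate 2 (0.553) or E16.5 replicate 2 (0.373), Dhh on equal numbers of cells (0.0826) and without E13.5 replicate 1 (0.0534), and Ccnb1 on equal numbers of cells (0.143). Hbb-y was lost with DESeq2 (0.219) and without E16.5 replicate 2 (0.473), and Ifitm1 with DESeq2 (0.0542).

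Against Sertoli cells, genes toward FLC included Hmgcs1 at 1.22, Dhcr7 at 1.4, Nsdhl at 1.41, Cst8 at 1.88 and Gadd45g at 1.31. Genes away from FLC included Cyb5a at -0.81, Inha at -1.49, Inhba at -2.1, Igf2 at -1.31, Prlr at -1.2, Hhip at -1.87, Pdgfa at -1.45, Ccnb1 at -2.09 and Cdk1 at -1.72. Prlr was lost on equal numbers of cells (adjusted p = 0.0768) and without E13.5 replicate 2 (0.0762) or E16.5 replicate 1 (0.11), and Hhip without E16.5 replicate 1 (0.0821). Pdgfa was at -0.7 without the cells of highest doublet score (0.211), and Gadd45g was lost without E16.5 replicate 2 (0.0652). Cyb5a, with the settings that end its call, is given in the report. The largest toward FLC were Acss2 at 3.15, Col18a1 at 3.06, AC167229.2 at 2.42, Hist1h2al at 2.33 and Tcn2 at 2.25. The largest away were Gm2694 at -4.15, Rbp4 at -3.74, Greb1 at -2.71, Cbln1 at -2.71 and Tpm2 at -2.48. Tcn2 was lost without E16.5 replicate 1 (adjusted p = 0.0672).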

How the results depend on the processing

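The number of genes called between E13.5 and E16.5 in FLC (122) was 683 with DESeq2, 38 with RLE size factors, 2213 with no filter on low counts, 444 on equal numbers of cells, 39 with TMM factors over all 3 cell types, and 19 to 865 with 1 library left out. For the change against progenitors (631) it was 398 with DESeq2, 1094 with no filter, 0 with no replicate block and 492 to 1066 with 1 library left out. Against Sertoli cells (434) it was 1489 with no filter, 8 with no replicate block and 176 to 910 with 1 library left out. The cause was not tested. The interaction calls rest on the block, as given beside them in the report.

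The change against progenitors took the other sign for Cyp11a1 without the highest doublet scores (-0.18), without marker-carrying cells (-1) and with 1 library left out (range -0.41 to 0.45, with -0.1 without E16.5 replicate 1). Without marker-carrying cells Star was at 0.06 (adjusted p = 0.937). The sign changed for Cyp17a1 without those cells (-1.32) and for Lhcgr on equal numbers of cells (-1.19), as did Cyp17a1 against Sertoli cells with 1 library left out (range -1.07 to 0.01). Marker-carrying cells were chosen by their own UMIs of the markers. They were 63 and 36 progenitors at E13.5 against 14 and 11 at E16.5. The values of Star, Cyp11a1 and Cyp17a1 without them thus follow from that choice and support nothing. Lhcgr, which the rule did not use, was at 0.5 against progenitors without them (adjusted p = 0.365). At E13.5 Lhcgr was higher in marker-carrying than in other EIP, so this value depends on the choice too.

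As a share of interstitial cells FLC were 9.25% at E13.5 and 7.4% at E16.5, and without erythrocytes, immune and germ cells they were 5.44% and 5.18%, both with the order of the stages turned from that over all cells (3.94% and 4.64%). Thinned shares with a UMI at E13.5 and E16.5 were 96.5% and 98.5% for Cyp11a1, 86.9% and 92.3% for Hsd3b1, 60% and 97.8% for Insl3, 83.2% and 74.1% for Star, and 92.1% at E13.5 for Cyp17a1. Of single genes, 729 values kept direction and side of the threshold, 106 lost the call, 22 gained it and 7 took the other sign.

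The contrasts with E12.5 and the comparison with EIP at both stages were not run for want of cells, nor was the removal of cells by a doublet score of the cell table, for which a score computed here was used.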

Other observations

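Some FLC carried transcripts of adrenal steroid enzymes. Cells with at least 5 UMIs of Cyp21a1 or Cyp11b1, enzymes of corticosteroid synthesis in the adrenal cortex, were 0 of 7 FLC at E12.5, 13 of 410 (3.17%) and 2 of 185 (1.08%) at E13.5, and 22 of 159 (13.8%) and 16 of 349 (4.58%) at E16.5. These few cells held 71.4%, 46.2%, 94.5% and 81.2% of the Cyp21a1 UMIs of FLC in the last 4 libraries. Both genes reached 5 UMIs in 1, 0, 3 and 0 cells.

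In plain CPM these cells had Star at 2100, 1470, 2880 and 2710, against 1120, 806, 1380 and 1210 in the other FLC of the same libraries. Cyp17a1 stood at 3110, 2000, 11100 and 9150, against 2690, 1810, 8610 and 7430. Insl3 stood at 806, 65.7, 2080 and 7010, against 913, 128, 1960 and 8070. Star and Cyp17a1 were thus higher in each library and Insl3 had no common order. These are descriptions of cells chosen by their counts, with no test.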
